A study of Mus musculus with 6 samples.

Results

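Naive stem cell marker genes are genes whose mRNA is found in mouse embryonic stem cells (mESCs) kept in the naive state. The same holds for the inner cell mass of the mouse blastocyst. For many of them, though not for all, the mRNA is lost as the cells leave that state. The 10 members examined here are Zfp42, Utf1, Fbxo15, Crxos1, Nr0b1, Prdm14, Dppa2, Dppa3, Dppa4 and Dppa5a. They were taken by gene symbol from the 23412 genes of the deposited table, and were chosen with earlier results of these data known. Crxos1, Nr0b1 and Prdm14 also stand in gene lists that the study drew up on these libraries. Counts of members beside the share of all genes, and medians of members beside those of all genes, are therefore not independent of these data. RNA-seq had been done on undifferentiated mESCs of the line R1 (genotype wild type) and of the line HN (genotype Htt-/-, a Htt-null line that lacks the promoter and exon 1 of the Huntingtin gene), both of strain 129Sv, with 3 libraries per line. Both lines were grown without feeder cells on gelatin, in serum with LIF and the inhibitors SU5402, PD184352 and CHIR99021, and the libraries with the same replicate number in R1 and HN were collected on the same date. HN is 1 line, so that a difference between the genotypes cannot be told apart from a difference between the lines. The labels do not say whether the batches were separate thaws or passages, and p-values measure the spread between these libraries only.

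The naive state is held by a network of transcription factors around Pou5f1, Sox2 and Nanog, supported by LIF and by block of the FGF and GSK3 pathways, and the marker genes are read as the output of that network rather than as its core. They code for proteins of several kinds. Zfp42 (Rex1), Nr0b1 (Dax1), Prdm14 and the double homeobox protein Crxos1 bind DNA or its regulators, Utf1, Dppa2 and Dppa4 are bound to chromatin, Fbxo15 is the F-box part of a ubiquitin ligase, Dppa5a binds RNA, and Dppa3 (Stella) keeps DNA methylation in check in the egg and early embryo.

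The libraries held between 1640391 and 3866717 reads on genes, and a gene with 3 reads in a library had a normalized count between 2.13 and 4.04 there. Normalized counts are reads divided by a size factor of the library, and log2 fold changes are HN minus R1 of log2(normalized count + 1). Htt itself was at 230, 257 and 199 normalized counts in R1 and at 18.3, 58.1 and 54.2 in HN, with a log2 fold change of -2.52 (SE 0.37, limma adjusted p = 0.0141). The stem cell markers Pou5f1 (2967 ± 807 in R1 and 2979 ± 862 in HN, SD, n = 3) and Sox2 (1082 ± 275 and 1066 ± 148) had log2 fold changes of 0.00 and -0.00. Nanog (2202 ± 301 and 2661 ± 175) had one of 0.28 and did not overlap between the lines (adjusted p = 1.0, and 0.0305 with the collection date as a block), but without the third date its adjusted p with the block was 0.0586. The replicate 3 libraries of both lines stood apart in that they held reads on 20675 (R1) and 20542 (HN) genes, against 18133 to 19083 in the others, so results that rest on them are also given without them.

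The promoters of Zfp42, Utf1 and Nr0b1 are shown first, because these genes differed between the lines in opposite directions and have a single start site in the RefSeq promoter table, which held 4 of the 10 members. Each is the 250 bases before the RefSeq start site (GRCm38.p6), 5′ to 3′ on the strand of the gene, in lower case with motif matches in capitals. The Zfp42 window lies at chr8:43307010-43307259 on the minus strand, that of Utf1 at chr7:139943606-139943855 on the plus strand and that of Nr0b1 at chrX:86191525-86191774 on the plus strand.
Zfp42: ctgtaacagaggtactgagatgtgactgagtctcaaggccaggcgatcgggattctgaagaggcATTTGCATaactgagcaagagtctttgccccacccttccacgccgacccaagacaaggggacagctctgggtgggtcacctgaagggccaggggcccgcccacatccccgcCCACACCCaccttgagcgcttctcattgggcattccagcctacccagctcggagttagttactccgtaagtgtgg
Utf1: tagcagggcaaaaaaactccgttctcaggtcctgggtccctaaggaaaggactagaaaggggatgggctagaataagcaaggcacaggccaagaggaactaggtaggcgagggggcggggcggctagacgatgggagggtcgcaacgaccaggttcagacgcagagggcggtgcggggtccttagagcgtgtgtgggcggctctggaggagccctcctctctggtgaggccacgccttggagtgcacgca
Nr0b1: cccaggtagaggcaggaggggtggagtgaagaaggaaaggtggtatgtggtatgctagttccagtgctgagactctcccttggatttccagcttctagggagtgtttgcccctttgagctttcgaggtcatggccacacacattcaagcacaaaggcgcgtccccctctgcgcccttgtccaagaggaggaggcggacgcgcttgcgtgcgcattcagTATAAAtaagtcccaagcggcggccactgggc
The capitals in Zfp42 mark an octamer match, on which Pou5f1 and its relatives bind, starting 186 bases before the start site, and a KLF match starting 75 bases before it. The capitals in Nr0b1 mark a TATA match starting 32 bases before the start site. Searched on both strands were the octamer ATGCAAAT (in 1.6% of 32851 such windows), the SOX motif ACAATG (10.7%), the ESRRB motif AAGGTCA (4.08%), the KLF motif GGGNGTGG (15.9%), the STAT motif TTCNNNGAA (7.02%), the YY1 motif AAGATGGC (1.56%) and TATAAA (12.4%). None of these letters was in the Utf1 window, whose GC content of 61.6% and 14 CpG compare with a median of 52.4% and 6 over all windows, 58.4% and 9 in Zfp42, and 57.2% and 11 in Nr0b1. Crxos1, listed in the annotation as Crxos, has 3 RefSeq start sites, the windows of which held 0, 2 or 3 CpG. A match is a stretch of letters and not a shown binding site.

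The comparison of HN with R1 asked whether the marker genes of the naive state were present at other levels in mESCs without Htt. They did not move as a group. On each of the 3 dates Zfp42, Utf1, Fbxo15 and Crxos1 had lower values in HN, and Nr0b1, Prdm14, Dppa5a, Dppa4, Dppa2 and Dppa3 had higher ones, with log2 fold changes from -2.75 (Crxos1) to 1.28 (Nr0b1). The same direction on all dates was found for HN higher in 20.3% and for HN lower in 21.1% of the 14276 genes tested, so that the direction alone says little about any member.

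**Figure D1:**
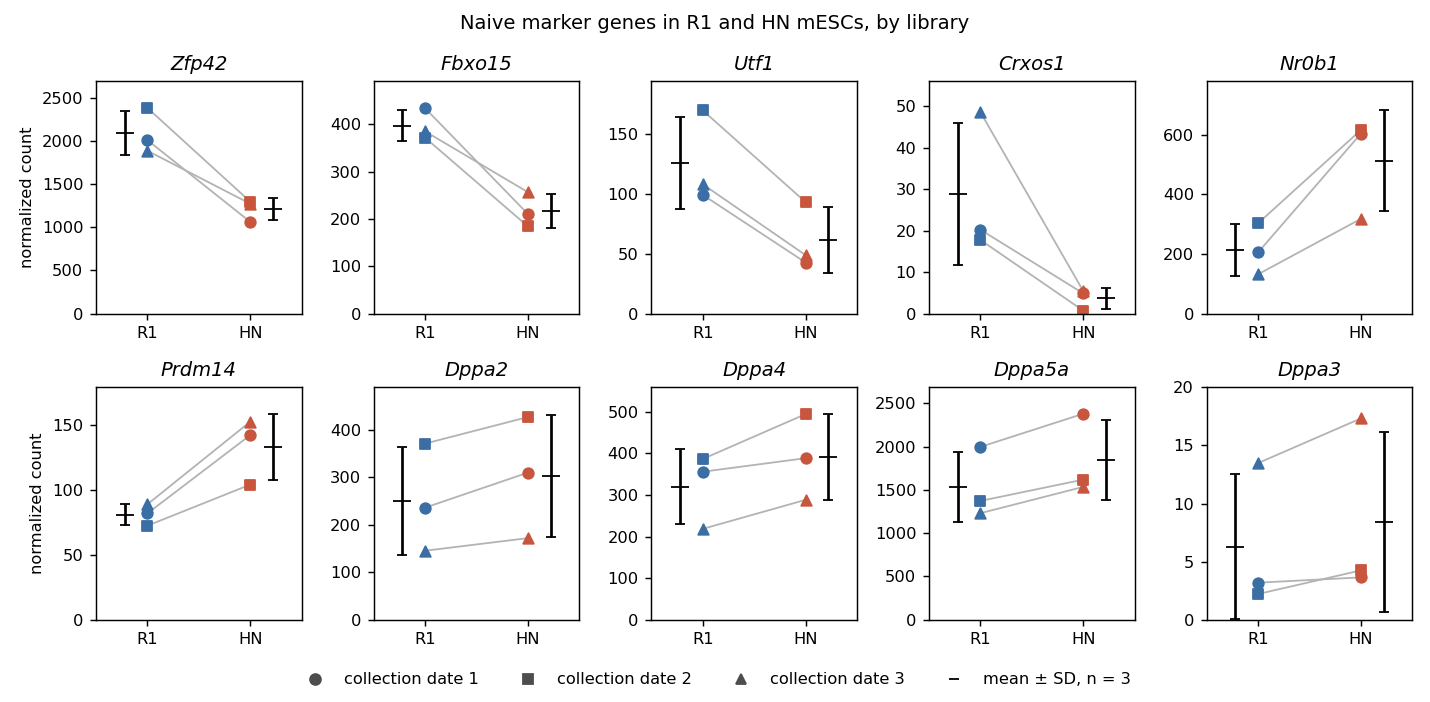
Normalized counts of the 10 marker genes (linear axis from 0) in the 3 R1 (blue) and 3 HN (red) libraries, with grey lines joining libraries of the same collection date and black bars for mean ± SD (n = 3). The lines do not overlap for Zfp42, Fbxo15, Utf1, Crxos1, Nr0b1 and Prdm14, and they overlap for the 4 Dppa genes.

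Without regard to the dates, limma called 0 of the 10 members higher and 0 lower (adjusted p under 0.05 and absolute log2 fold change above 1), where it called 0.119% of all genes higher and 0.126% lower. By unadjusted p, 6 members (Zfp42, Utf1, Fbxo15, Nr0b1, Prdm14 and Crxos1) were under 0.05, against 5.91% of all genes, and edgeR on the recovered reads likewise gave 0 members at an adjusted p under 0.05 and the same 6 by unadjusted p (6.14% of all genes). DESeq2 without the dates passed Nr0b1 as higher (0.476% of all genes passed higher) and Zfp42, Fbxo15 and Crxos1 as lower (0.301%). Crxos1 was tested only through its R1 level, since its HN mean of 3.66 was under the minimum mean of 5.

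With the collection date as a block (the replicate block, which compares HN with R1 within dates), 7 members passed an adjusted p of 0.05. Nr0b1, Prdm14 and Dppa5a rose, in a background of 5.46% of genes that passed higher, and Zfp42, Utf1, Fbxo15 and Crxos1 fell, in a background of 4.02% that passed lower. With the limit on size added, Nr0b1 was called higher (0.911% of all genes) and Utf1 and Crxos1 were called lower (1.04%). Crxos1 counts here through its R1 level alone and was listed by the study as reduced in these libraries, so its call is not independent evidence. The median standard error of the members went from 0.29 to 0.11 on the log2 scale when the block was added, and that of all genes from 0.30 to 0.19. edgeR with the block passed the same 7 members (11.2% of all genes passed), and DESeq2 with the block passed Zfp42, Utf1, Fbxo15 and Nr0b1 (3.59%) and gave no adjusted p for Crxos1 and Dppa3. The members' median absolute log2 fold change was 0.74, beside 0.22 over all genes tested, and their median signed log2 fold change was 0.27, beside -0.01. These medians rest on members chosen with earlier results known, some of them from lists of changed genes, so the contrast is partly set by that choice.

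**Figure D2:**
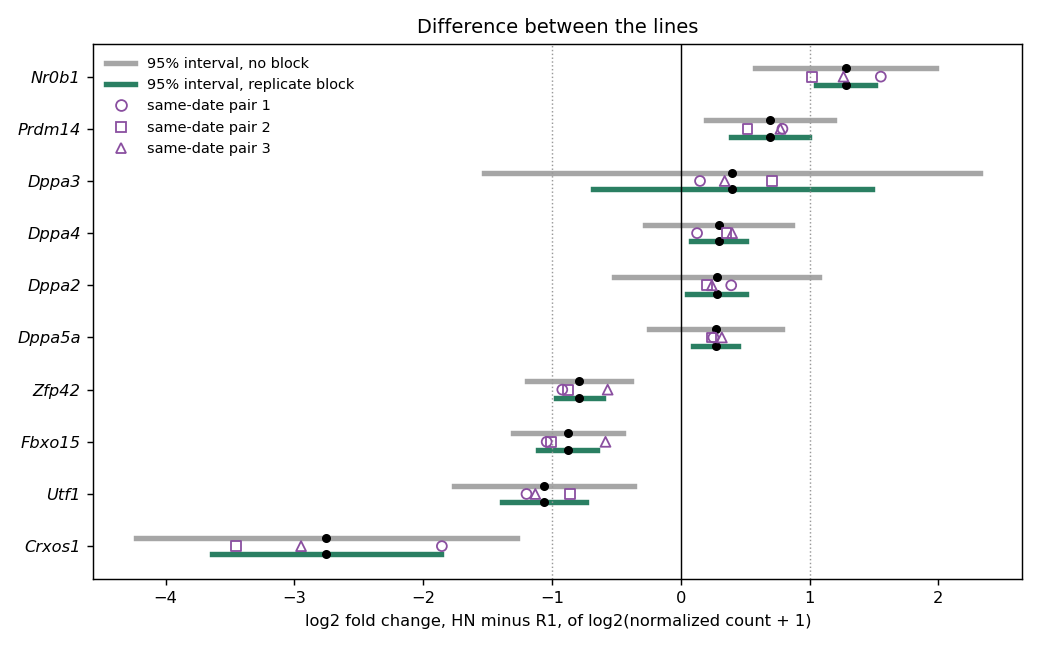
Log2 fold change (HN minus R1, of log2 normalized count + 1) of each marker gene as a black point, with the 95% interval without the block (grey) and with the replicate block (green) and the 3 same-date pairs as open symbols. With the block the intervals of all but Dppa3 lie on 1 side of 0, though Dppa2 and Dppa4 had adjusted p of 0.121 and 0.0778.

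Zfp42, a zinc finger protein related to YY1 and a widely used reporter of the naive state, lies on chromosome 8 (8:43295063-43306980, GRCm38, minus strand) and was at 2009, 2381 and 1886 normalized counts in R1 and at 1061, 1295 and 1271.5 in HN. All 3 HN libraries were below all R1 libraries, and the R1 mean was 1.73-fold the HN mean (2092 ± 258 against 1209 ± 129). Its log2 fold change was -0.79, with an SE of 0.18 without the block (adjusted p = 0.195) and 0.09 with it (adjusted p = 6.37e-08). Over the alternatives adjusted p ran from 7.63e-23 to 1.0. The lowest value, as for Fbxo15 and Nr0b1, came from limma with the block without the third date. That fit leaves a single residual degree of freedom, so its small p-values are not stronger evidence than those of all dates. Within dates the log2 differences were -0.92, -0.88 and -0.57. Of its exonic 50-base stretches 8.52% also occur in the pseudogene Zfp42-ps1. Its nearest tested coding neighbour Triml2, 101 kb away, was at 372 ± 147 in R1 and 206 ± 60.3 in HN (log2 fold change -0.80, adjusted p = 0.744 without and 4.54e-06 with the block). Fat1, 1628 kb away on the other side, had a log2 fold change of 0.42 (0.00148 with the block). The median over the 704 tested genes of chromosome 8 was -0.22, lower than the medians of the other chromosomes that hold a member (-0.06 to 0.09).

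Fbxo15, an F-box protein of an SCF ubiquitin ligase whose locus served as a reporter in reprogramming, lies at 18:84934782-84981473 (plus strand) and was at 434, 372 and 385 normalized counts in R1 and 210, 184 and 257 in HN. The lines did not overlap. On the log2 scale the difference was -0.88, with an SE of 0.20 without the block (adjusted p = 0.154) and 0.11 with it (adjusted p = 8.68e-07), over alternatives from 1.82e-13 to 0.760. The differences within dates were -1.04, -1.01 and -0.58, so that the third date gave the smallest one, as it did for Zfp42. Without the third date the fit with the block gave -1.03, which called Fbxo15 lower. The gene Timm21 lies inside Fbxo15 on the other strand, and the library kit does not mark strand, so reads where their exons overlap cannot be told apart. Timm21 was at 72.9 ± 22.1 in R1 and 82.8 ± 27.7 in HN, with a log2 fold change of 0.17 (0.625 with the block), and Fam69c on the other side had one of -0.07 (0.974).

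Utf1, a chromatin-bound protein of undifferentiated cells that sits at genes marked by PRC2, lies at 7:139943789-139945112 (plus strand) and was at 99.003, 169 and 108 normalized counts in R1 and 42.6, 92.9 and 48.7 in HN. The lines did not overlap, though the highest HN library was close to the lowest R1 library. Replicate 2 was the highest library in both lines. Its log2 fold change was -1.06, with an SE of 0.32 without the block (adjusted p = 0.472) and 0.16 with it (adjusted p = 1.34e-05), over alternatives from 8.48e-07 to 1.0. The differences within dates were -1.20, -0.86 and -1.13. Kndc1, which ends 2.25 kb before Utf1, had a log2 fold change of -0.68 (adjusted p = 0.715 without and 0.0434 with the block, and 0.0644 with the block without the third date), and 6430531B16Rik on the other side had one of -0.36 (0.792 with the block).

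Crxos1 (7:15882617-15904020, plus strand), a homeobox protein of the preimplantation embryo, had the largest fold change among the members, on few reads. It was at 20.2, 17.8 and 48.5 normalized counts in R1, from 19, 24 and 36 reads, and at 4.87, 0.709 and 5.42 in HN, from 4, 1 and 5 reads. No HN library reached the lowest R1 library, and the third date held the highest value in each line. The fitted log2 fold change was -2.75, with an SE of 0.68 without the block (adjusted p = 0.256) and 0.44 with it (adjusted p = 3.07e-05), over alternatives from 1.60e-06 to 0.818. The size depended on the treatment of low counts and ran from -3.21 to -1.44 over the alternatives. Crxos1 passed the filter on low values through R1, since its HN mean of 3.66 was under the minimum mean of 5. It belongs to the genes that the study listed as most reduced in these same libraries, so its direction is not independent evidence. Of its 50-base stretches 18.5% also occur in other genes, and how reads there were divided was not tested. The neighbours Obox6 and Ehd2, at mean levels of 9.88 and 9.75 normalized counts in R1 and 2.49 and 4.03 in HN, had log2 fold changes of -0.93 and -0.94 (0.491 and 0.317 with the block). Like Crxos1, both passed the filter on low values through R1. The differences of Obox6 within dates changed sign (0.73, -1.21 and -2.32).

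Nr0b1, an orphan nuclear receptor that binds Pou5f1 and Esrrb, lies on the X chromosome (X:86191764-86195947, plus strand) and was at 205, 303 and 132 normalized counts in R1 and 605, 617 and 318 in HN. The lowest HN library was above the highest R1 library, and within each line the third date was lowest. The HN mean was 2.40-fold the R1 mean (513 ± 169 against 214 ± 85.9). On the log2 scale the difference was 1.28, with an SE of 0.32 without the block (adjusted p = 0.275) and 0.11 with it (adjusted p = 2.03e-10), over alternatives from 2.11e-25 to 1.0. The differences within dates were 1.55, 1.02 and 1.26. Of the 6 fits without the block that left out 1 library, only 1 passed. It left out replicate 3 of HN, the lowest HN library, and gave 1.59 (limma adjusted p = 0.0325). The others had adjusted p from 0.0903 upward. The nearest tested coding genes found, Tab3 and Pola1, lie 557 kb and 7109 kb away, so none close to Nr0b1 was compared. Neighbours were matched by gene symbol, and a gene listed under another symbol would be missed. Tab3 and Pola1 had log2 fold changes of 0.16 and 0.05 and did not pass with the block (0.513 and 0.848). The median over the 418 tested X-linked genes was 0.09.

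Prdm14, which represses FGF receptor signalling and de novo DNA methylation in naive cells, lies at 1:13113457-13127163 (minus strand) and was at 82.0, 72.5 and 89.0 normalized counts in R1 and 142, 104 and 153 in HN. The lines did not overlap. The log2 fold change was 0.69, with an SE of 0.23 without the block (adjusted p = 0.553) and 0.15 with it (adjusted p = 0.00152), over alternatives from 4.27e-04 to 1.0. The differences within dates were 0.79, 0.52 and 0.77. Of its neighbours, Slco5a1 had a log2 fold change of -0.95 (0.0208 with the block) and Ncoa2 of 0.35 (0.115). Both Nr0b1 and Prdm14 stand in a gene list that the study drew up on these libraries, so their direction is not independent evidence either.

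Dppa2 and Dppa4 form a protein pair that keeps developmental genes open to activation and switches on genes of the 2-cell embryo, and their genes are neighbours on chromosome 16, 9.67 kb apart. Dppa2 (16:48303908-48319723, plus strand) was at 236, 371 and 146 normalized counts in R1 and 310, 427 and 172 in HN. Dppa4 (16:48283733-48294237, plus strand) was at 356, 386 and 218 in R1 and 388, 494 and 288 in HN. For both genes and in both lines, replicate 2 was highest and replicate 3 lowest, and the lines overlapped. The log2 fold changes were 0.28 (95% interval -0.52 to 1.07, and 0.05 to 0.51 with the block) for Dppa2 and 0.29 (-0.28 to 0.87, and 0.08 to 0.51) for Dppa4. Neither passed, with adjusted p of 1.0 without the block for each, and 0.121 (Dppa2) and 0.0778 (Dppa4) with it, over alternatives from 0.0998 and from 0.0564 upward. Per exon length the level of Dppa2 was 0.451, 0.653 and 0.453 of that of Dppa4 in R1 and 0.543, 0.588 and 0.406 in HN. These ratios overlapped between the lines. Of the 50-base stretches, 29.1% of Dppa2 and 31.3% of Dppa4 also occur in other annotated genes. The next tested coding genes outside the pair, Morc1 (112 kb from Dppa2) and Plcxd2 (2274 kb from Dppa4), had log2 fold changes of -0.08 and -0.16 (0.727 and 0.809 with the block).

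Dppa5a (9:78367052-78368177, minus strand), a KH domain protein that binds RNA, was at 1996, 1372 and 1231 normalized counts in R1 and 2379, 1618 and 1535 in HN. The first date was highest in both lines and the lines overlapped. The fitted log2 fold change was 0.27, with an SE of 0.24 without the block (adjusted p = 1.0) and 0.09 with it (adjusted p = 0.0389), over alternatives from 0.0246 to 1.0. The differences within dates were 0.25, 0.24 and 0.32. Of its 50-base stretches 38.6% also occur in other genes, the largest share among the members. Ooep, 7.93 kb away, had a log2 fold change of 0.54 (adjusted p = 0.701 without and 0.00175 with the block), and Gsta4 on the other side had one of 0.12 (0.513 with the block).

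Dppa3 (6:122626410-122630272, plus strand), which in the zygote guards maternal DNA from demethylation and acts against Uhrf1, was close to the detection limit. It was at 3.19, 2.22 and 13.5 normalized counts in R1, from 3, 3 and 10 reads, and at 3.65, 4.25 and 17.3 in HN, from 3, 6 and 16 reads. The third date was highest in both lines. The log2 fold change of 0.40 had a 95% interval of -1.53 to 2.32 (adjusted p = 1.0), which holds a difference of the size seen for Nr0b1 in either direction. With the block the interval was -0.68 to 1.48, which still holds a rise but not a fall of that size (adjusted p = 0.745, over alternatives from 0.719 to 1.0). Its neighbours Gdf3 and Nanog, 16.3 kb and 77.2 kb away, are naive network genes, and Gdf3 had a log2 fold change of 0.61 (2.05e-04 with the block) beside that of Nanog.

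Several members differed between the third collection date and the earlier dates by as much as they did between the lines. Dppa2, Dppa4, Dppa5a and Nr0b1 were lowest on the third date in both lines, as were 29.5% of all genes, and Dppa3, Prdm14 and Crxos1 were highest on it in both lines, as were 25.6%. Against the mean of the earlier dates, on the log2 scale, Dppa2 stood at -1.02 in R1 and -1.08 in HN on the third date, Nr0b1 at -0.91 and -0.94, and Dppa4 at -0.76 and -0.60. Dppa3 stood at 1.98 and 1.89 and Crxos1 at 1.31 and 1.02. Zfp42 (-0.21 and 0.12) and Fbxo15 (-0.06 and 0.38) had opposite signs in the lines. Without the third date, limma with the block passed the same 3 members higher (5.86% of all genes) and the same 4 lower (5.93%) as with all dates. What differed between the dates is not given in the labels.

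**Figure D3:**
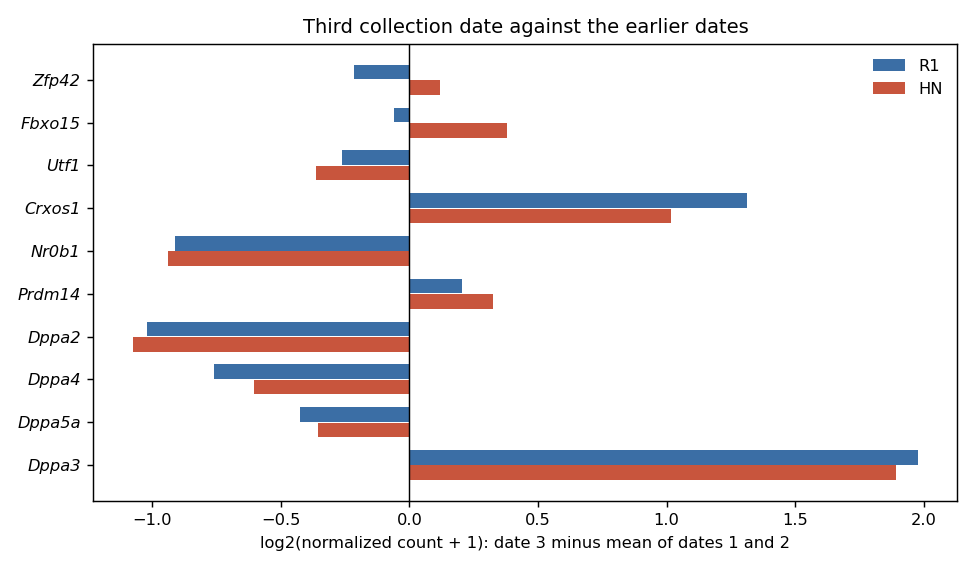
Difference of log2(normalized count + 1) between the third collection date and the mean of the earlier dates for each marker gene, in R1 (blue bars) and HN (red bars), 1 library per line on the third date. Dppa2, Dppa4 and Nr0b1 lie below -0.6 in both lines, while Crxos1 and Dppa3 lie above 1 in both.

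Between lines and dates the libraries of HN and R1 did not overlap for 2 members with HN higher (Nr0b1 and Prdm14), where 5.23% of all genes had HN higher without overlap, and for 4 members with HN lower (Zfp42, Utf1, Fbxo15 and Crxos1), where 5.54% had. Of these, Crxos1 was tested through its R1 level only. A single comparison of 3 against 3 libraries cannot go below an exact two-sided permutation p of 0.1.

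Levels of different members were compared as normalized counts per kilobase of exons. In R1, Dppa5a was highest (mean 2476.5), then Zfp42 (1112), Dppa4 (193), Fbxo15 (118), Nr0b1 (118), Dppa2 (103), Utf1 (102), Prdm14 (31.6), Crxos1 (9.75) and Dppa3 (7.06). The libraries of Fbxo15, Nr0b1, Dppa2 and Utf1 overlapped, as did those of Crxos1 and Dppa3. Dppa5a, Zfp42 and Prdm14 were each apart from their neighbours in that order. Dppa4 lay above Fbxo15 by a small margin only, and its libraries overlapped those of Nr0b1, Dppa2 and Utf1. In HN the order was Dppa5a (2979), Zfp42 (643), Nr0b1 (284), Dppa4 (235), Dppa2 (124), Fbxo15 (64.6), Prdm14 (51.9), Utf1 (50.03), Dppa3 (9.43) and Crxos1 (1.24). There, neighbours from Nr0b1 to Utf1 overlapped, and Dppa5a, Zfp42, Dppa3 and Crxos1 were apart. Nr0b1 thus stood above Dppa4, Fbxo15 and Dppa2 in the HN order and among Fbxo15, Dppa2 and Utf1 in that of R1.

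**Figure D4:**
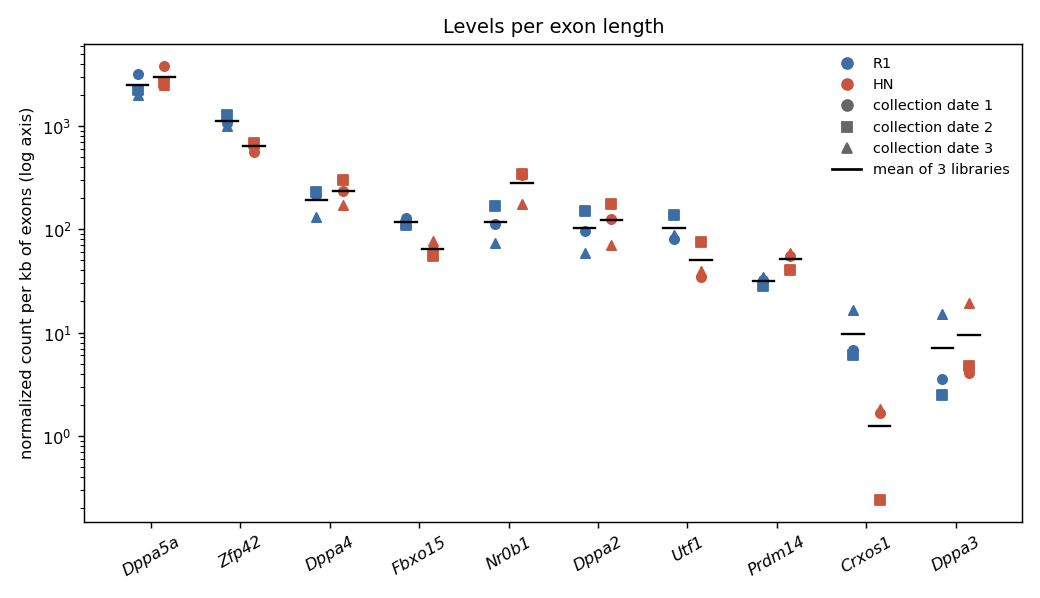
Normalized count per kilobase of exons (log axis) of each marker gene in the R1 (blue) and HN (red) libraries, with symbols for the collection dates and a bar for the mean of 3 libraries. Dppa5a and Zfp42 exceed the other members in every library, and Crxos1 and Dppa3 are lowest.

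Other gene lists of the same states were read in the same fit, as counts beside the background above. Of 23 further naive network genes 21 were tested, with the block 11 rose and 5 fell, and their median log2 fold change was 0.31, beside -0.01 over all genes tested. Those that rose included the transcription factors Tfcp2l1 (log2 fold change 0.56, adjusted p = 1.64e-05 with the block and 0.655 without), Klf4 (0.52, 8.96e-04 and 0.713) and Esrrb (0.37, 0.00389 and 1.0), named after their values were seen. Eras, a constitutively active Ras of mESCs, was called lower with and without the block, at 169 ± 28.9 in R1 and 58.3 ± 15.8 in HN (log2 fold change -1.54, adjusted p = 0.0264, and 8.88e-09 with the block). Eras, like Crxos1, is listed by the study among the most reduced genes in these libraries, so its direction is not independent evidence. Spic was called lower with the block, at 19.6 ± 11.8 and 8.06 ± 8.99 (-1.43, 0.0297, and 0.991 without). The naive network genes thus also moved in both directions.

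Of 12 formative and primed genes, which mark the step after the naive state, all 12 were tested, and 3 rose and 2 fell with the block (median log2 fold change 0.28). The neural and epiblast factors Zic2 (22.3 ± 16.9 in R1 and 63.2 ± 23.7 in HN, log2 fold change 1.62, adjusted p = 2.36e-05 with the block and 0.415 without) and Zic5 (1.24, 3.78e-04 and 0.511) and the Wnt effector Lef1 (1.298, 0.00642 and 0.757) were called higher with the block. Lef1 overlapped between the lines, and its log2 differences within dates were 2.13, 1.71 and 0.05, so that the third date showed almost none. Without that date its log2 fold change was 1.92 (3.02e-06 with the block). Zic2 (1.92) and Zic5 (1.46) were higher without it too, and their libraries also overlapped between the lines. Otx2, which drives exit from the naive state, was called lower with it (27.0 ± 11.1 and 9.21 ± 4.91, -1.52, 0.00308 and 0.620). Of 18 2-cell-like genes, several of them targets of the Dppa2 and Dppa4 pair, 10 were tested (median log2 fold change 0.05) and 0 passed with the block by limma, edgeR or DESeq2, where 3, 1 and 0 of them had an unadjusted p under 0.05. The share of all genes under that unadjusted limit with the block was not computed, so nothing is read from these counts. Gm4340 was at 0 in all libraries. Of 12 genes of DNA methylation and FGF receptor signalling, on which Prdm14 and Dppa3 act, Tet2, Uhrf1 and Spry2 rose and Dnmt3l, Spry4 and Dnmt3a fell with the block, with no call, and the genes named from this list were chosen after their values were seen. Uhrf1 had a log2 fold change of 0.57 (2.52e-05 with the block, 0.811 without), Dnmt3l of -0.71 (3.08e-05 and 1.0) and Dnmt3a of -0.96 (7.54e-04 and 0.374), while the receptors Fgfr1 (-0.14, 0.601 with the block) and Fgfr2 (0.12, 0.931) did not pass.

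**Figure D5:**
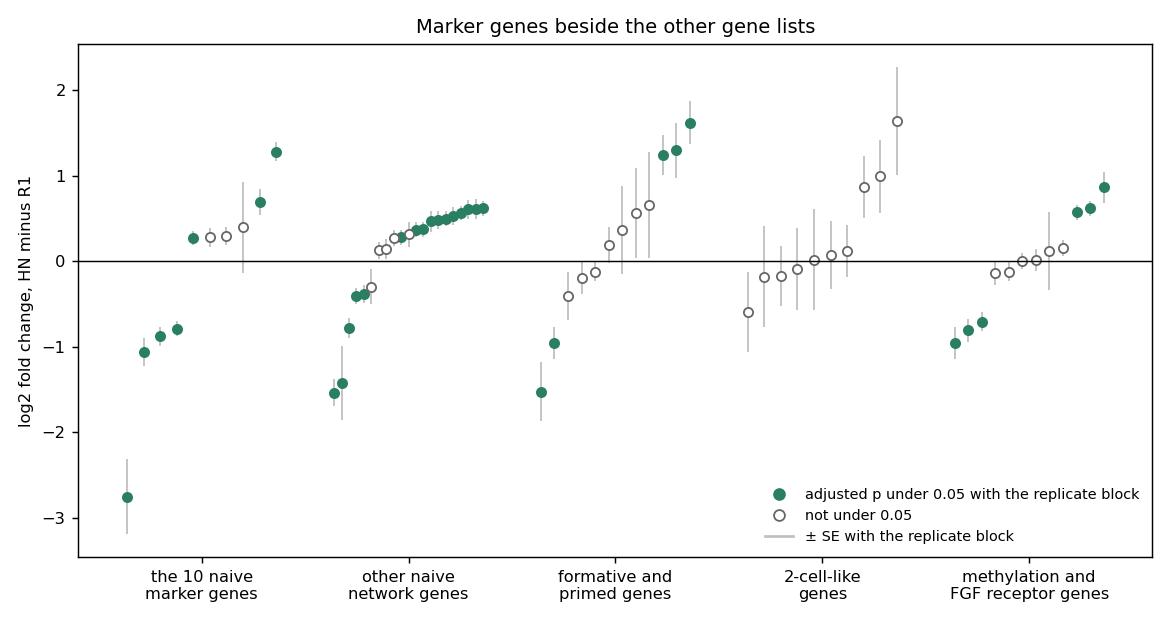
Log2 fold change (HN minus R1) of the tested genes of each list, sorted within the list, with ± SE from the fit with the replicate block and filled points for adjusted p under 0.05 in that fit. Each list but the 2-cell-like genes, of which 0 passed, holds filled points on both sides of 0.

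Markers of other cell types were measured beside these results. The summed normalized count of 10 primitive endoderm markers was 311 to 484 in R1 and 566 to 736 in HN, a gap carried by Lama1 (log2 fold change 1.04, adjusted p = 3.17e-09 with the block and 0.0612 without), without which the sums were 60.7 to 240 and 51.7 to 186. Lama1 stands in the same gene list of the study as Nr0b1 and Prdm14, so its direction is not independent evidence. The 8 trophoblast markers summed to 88.4 to 163 and 166 to 242, and without Eomes, the only gene among them that passed with the block, to 24.5 to 136 and 62.1 to 110. The 10 fibroblast markers summed to 74.7 to 174 in R1 and 31.2 to 92.1 in HN. Of these, Pdgfrb (log2 fold change -1.39, adjusted p = 9.33e-05 with the block and 0.276 without) and Thy1 (-1.54, 0.00112 and 0.553) were called lower with the block, and without them the sums were 14.8 to 67.4 and 8.51 to 54.2. The 10 neural and mesoderm markers summed to 281 to 380 and 221 to 365. Of these, T was called higher with the block (1.21, 0.001002 and 0.620) and Tubb3 passed lower (-0.76, 7.45e-04 and 0.715), and without them the sums were 65.8 to 179 and 92.9 to 187. No marker of these lists was at 0 in all libraries, and their part in the results was not tested. In RNA from whole cultures, fewer cells with a marker and less of its RNA per cell cannot be told apart.

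The tested genes whose log2 values followed a called member most closely over the 6 libraries were Uba6 (Pearson's r = 0.999) and Dnttip2 (0.986) for Utf1, BC030336 (0.995) and Usp54 (0.995) for Nr0b1, and Gpsm2 (0.990) and Tmem121 (0.988) for Crxos1. These values share libraries and dates and are a description. For Nr0b1, 118 of the tested genes had an r above 0.95, for Crxos1 39 and for Utf1 37. Usp54 followed Nr0b1 in both the lines and the dates, at 145, 193 and 121 normalized counts in R1 and 276, 301 and 200 in HN.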

How the data were processed

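Gene expression of 6 mESC libraries was measured by paired-end RNA-seq (Illumina TruSeq RNA kit v2). The deposited table holds 1 signal value per gene and library, a read count scaled for depth. To make it, the authors used STAR for alignment (build mm10/GRCm38), Picard to take out PCR duplicates, HTSeq for counts on exons and DESeq2 size factors for scaling. Tool versions and the gene annotation are not given in the sources used here. Dividing each value by that of a single read gave whole numbers in 100% of cases (relative tolerance 0.001), and these recovered reads were used for depth and for the count-based alternatives. In 27 rows a date stood in place of the gene name, and none of them is a member. Statements on depth cover counting error only, since the sources name no molecular identifiers.

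A pseudocount of 1 was added before taking log2, and HN was compared with R1 by limma 3.58.1 with a variance trend (R 4.3.3) over the 14276 genes with a mean normalized count of at least 5. P-values were adjusted by Benjamini-Hochberg over these genes. Genes with an adjusted p under 0.05 passed, and those with an absolute log2 fold change above 1 as well were called. The main fit has no block, since the methods of the study name none. The pairing comes from the collection dates in the labels, which same-numbered libraries share, so values with the replicate block are given beside those without. Deviations of same-date libraries from their line means correlated at 0.25, 0.69 and 0.77. For the first date this was weak, since R1 replicate 1 correlated more with HN replicate 2, of another date (0.34). The remaining correlations between different dates were negative. edgeR 4.0.16 and DESeq2 1.42.0 were run on the recovered reads. Fits without the third date were added after seeing the data. With the block, such a fit leaves a single residual degree of freedom, so its p-values rest mostly on the variance trend over all genes. The fits were tested on simulated data.

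The members and lists were chosen with earlier results of these data known. Named were the members, Htt, the called genes of each list (at most 4 by p with the block), the nearest tested coding gene on each side of a member, and for members called with the block the 2 genes of highest Pearson correlation over the libraries. Genes outside this rule are marked as chosen after their values were seen. Positions and exon lengths come from GENCODE M21 (GRCm38) and promoters from RefSeq (GRCm38.p6).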

Additional observations from a re-analysis of the deposited data

How the results depend on the processing

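Over all genes tested, 17 were called higher and 18 lower by limma without the replicate block. With the replicate block 130 were called higher and 148 lower, with edgeR and the block 132 and 152, and with DESeq2 47 and 32. Median centring gave 27 called higher, and limma without a variance trend called 0 in each direction (767 genes at an unadjusted p under 0.05). Chosen after seeing the data, DESeq2 with the block called 75 and 61, and limma with the block without the third date 189 and 197. Leaving out 1 library gave 3 to 30 called higher and 4 to 26 lower. The libraries whose omission moved a count by more than 1.5 times were R1 replicate 1 (4 and 4), R1 replicate 3 (30 higher) and HN replicate 1 (3 and 10). The cause of these shifts was not tested.

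Of the members, Zfp42, Fbxo15, Utf1, Crxos1, Nr0b1, Prdm14, Dppa4 and Dppa5a had the same sign in every alternative that gave a value. Dppa2 turned to -0.062 without R1 replicate 3 and to -0.02 without HN replicate 2, and Dppa3 to -0.03 without R1 replicate 2 and to -0.23 without HN replicate 3. Leaving out 1 library gave -0.86 to -0.69 for Zfp42, -1.01 to -0.77 for Fbxo15, -1.40 to -0.83 for Utf1, -3.09 to -2.14 for Crxos1, 0.97 to 1.59 for Nr0b1, 0.59 to 0.86 for Prdm14, -0.062 to 0.64 for Dppa2, 0.040 to 0.49 for Dppa4, 0.072 to 0.48 for Dppa5a and -0.23 to 1.06 for Dppa3. With a minimum mean of 50, Dppa3 and Crxos1 were not tested. Depth limits Dppa3 (16 reads over R1 and 25 over HN) and Crxos1 (79 and 10).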
